A study of Mus musculus with 3 samples.

Results

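The genes described here build the DNA replication machinery: the proteins that mark and license replication origins, the helicase that opens the helix, and the primase, polymerases, clamp, clamp loader and ligase of the fork, with 2 S phase entry genes and 2 fork protection genes. The 40 genes were chosen by name, and all 40 were found among the 37646 genes of each count table. RNA was measured in 3 libraries of B220+GFP+ cells sorted from the spleens of C57BL/6 mice of the pBIC2 model, here called tumours 1, 2 and 3. These mice carry floxed p53 (p53F/F) and floxed Blimp1 (Blimp1F/F), an activatable IKK2 allele (IKK2castopF/stopF), a Cre recombinase at the Cg1 locus (Cg1Cre/+) and a human BCL2 transgene under the Eµ enhancer (Eµ-hBCL2tg/+). All 3 libraries form 1 group, and germinal centre B cells, the controls of the design, were not analysed here, so no change from normal B cells can be read from these values. Cre at Cg1 acts in B cells that transcribe this constant region, and recombination of the alleles was not checked here. The labels give the same genotype for every library, and the mice were moribund when the spleens were taken. Age and treatment are not stated, and nothing in the labels says that the libraries came from separate mice. Each tumour is 1 library, so differences between tumours have no replicate check, and no test between them was made.

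In dividing cells, the origin recognition complex, Cdc6 and Cdt1 load the MCM2-7 helicase on DNA in G1, and geminin blocks Cdt1 once S phase has begun, so that origins fire once per cycle. Cdc45 and the GINS complex join MCM2-7 to form the active helicase, and polymerase alpha with primase, the replication factor C (RFC) clamp loader, the Pcna clamp, polymerases delta and epsilon, Fen1 and ligase 1 copy the strands. Many of these genes are known targets of E2F transcription factors, which RB proteins hold in check until a cell commits to S phase. Germinal centre B cells, from which diffuse large B cell lymphomas often arise, are among the fastest dividing cells of the body.

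Sequences were taken from RefSeq (GRCm38.p6), in windows from 250 bases before to 50 bases after a gene's transcription start. Together 35 windows were held for 30 of the 40 genes, some with more than 1 start, and none for Gmnn, Mcm4, Gins1, Gins2, Gins4, Rfc2, Prim2, Pole, Ccne2 and Tipin. In the 35 windows 4 words of the E2F type were searched on both strands: TTTCCCGC, with TTTCGCGC as the next, then TTTGCCGC, and last TTTGGCGC. Mcm6 held the most words, 3, and Mcm5, Mcm3, Mcm7 and Rfc3 held 2 each, while Mcm2 and Mcm10 held none. The windows of the 4 MCM genes with words are shown in full (of the genes with 2 words, the 3 of highest mean CPM), 5′ to 3′ on the gene's own strand, with the words in capitals. A word on the opposite strand appears as its reverse complement, and overlapping words merge into 1 run of capitals.
Mcm6 (chr1:128359656-128359955, minus strand): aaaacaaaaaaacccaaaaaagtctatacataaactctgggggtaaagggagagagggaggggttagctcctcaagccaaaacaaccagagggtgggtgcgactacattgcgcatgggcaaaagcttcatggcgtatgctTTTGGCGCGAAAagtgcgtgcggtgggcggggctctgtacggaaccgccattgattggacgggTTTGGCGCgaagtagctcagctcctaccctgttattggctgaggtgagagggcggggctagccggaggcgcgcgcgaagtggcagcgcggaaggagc
Mcm5 (chr8:75109259-75109558, plus strand): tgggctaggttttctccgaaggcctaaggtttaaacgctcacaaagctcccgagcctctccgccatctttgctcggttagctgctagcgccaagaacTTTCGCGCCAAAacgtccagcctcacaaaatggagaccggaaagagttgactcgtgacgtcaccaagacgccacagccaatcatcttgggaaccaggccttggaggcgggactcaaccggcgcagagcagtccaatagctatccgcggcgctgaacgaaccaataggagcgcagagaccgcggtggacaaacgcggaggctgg
Mcm3 (chr1:20820263-20820562, minus strand): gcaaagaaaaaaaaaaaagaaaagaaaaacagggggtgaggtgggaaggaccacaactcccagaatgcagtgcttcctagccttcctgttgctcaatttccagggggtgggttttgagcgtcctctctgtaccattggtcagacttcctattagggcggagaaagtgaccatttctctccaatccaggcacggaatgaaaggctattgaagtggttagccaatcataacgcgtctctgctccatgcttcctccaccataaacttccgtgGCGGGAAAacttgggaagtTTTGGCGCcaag
Mcm7 (chr5:138171834-138172133, minus strand): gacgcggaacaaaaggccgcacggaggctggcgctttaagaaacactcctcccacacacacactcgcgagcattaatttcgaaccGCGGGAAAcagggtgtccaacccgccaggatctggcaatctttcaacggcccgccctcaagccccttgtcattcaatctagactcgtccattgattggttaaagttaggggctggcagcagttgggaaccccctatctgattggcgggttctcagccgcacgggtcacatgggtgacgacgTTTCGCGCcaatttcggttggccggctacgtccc
In Mcm6 and in Mcm5, a word on the gene strand overlapped a word on the opposite strand. In the Mcm3 and Mcm7 windows the words lay apart, and 3 of these 4 words lay just after the start.

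Another 9 genes held a word, and the bases around it, with up to 10 on each side, are shown to give each word its place in the gene. The capitals are alike because these words were searched for.
Rfc3 (chr5:151651191-151651228, minus strand): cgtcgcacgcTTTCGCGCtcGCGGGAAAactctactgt
Cdt1 (chr8:122568037-122568064, plus strand): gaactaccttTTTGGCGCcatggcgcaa
Cdc6 (chr11:98908003-98908030, plus strand): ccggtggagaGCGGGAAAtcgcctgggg
Orc1 (chr4:108579417-108579444, plus strand): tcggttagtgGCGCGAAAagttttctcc
Gins3 (chr8:95633508-95633535, plus strand): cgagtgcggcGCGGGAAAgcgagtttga
Pola1 (chrX:93632276-93632303, minus strand): tcatcacaggGCGCCAAAtgcactcccg
Pold1 (chr7:44548766-44548786, minus strand): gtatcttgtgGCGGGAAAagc
Lig1 (chr7:13278842-13278869, plus strand): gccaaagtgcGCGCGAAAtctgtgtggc
Clspn (chr4:126556991-126557018, plus strand): ccgcgtctggGCGCGAAAgctcgaactt
Rfc3 held 2 words, separated by a pair of bases, and the others held 1. In all, 19 words were found, of which 12 began between 100 bases before and 50 bases after the start (positions count the first transcribed base as 1). The start is that of RefSeq, and a transcript start of GENCODE M21 was found at or near it in 28 of the 35 windows only. A word is a match of letters, and binding was not measured.

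An E2F word was found in any window of 13 of the 30 genes (43.3%), against 467 of the 9884 tested genes with a window (4.72%) and 2.605% of all 27025 genes with a window. Among lists of related genes, the E2F, RB and G1/S control list had a word in 8 of 17 genes with a window and the other replication genes in 8 of 27, while mitosis genes had one in 1 of 21. With the 2 words TTTGGCGC and, as the other, TTTCCCGC alone, 10 of the 30 genes matched, against 3.47% of tested genes. Of the 13 genes with a word, 10 had their lowest level in tumour 2, and of the 17 with a window and no word, 9 did. A pair of other motifs was looked at after the values were seen. CCAAT, the NF-Y box, was in windows of 20 of the 30 genes (43.1% of tested genes with a window), and TTTGAA, the core of the cell cycle homology element of mitotic genes, was in 4 of 30 (14.8% of tested genes). Of the 21 mitosis genes with a window, 14 held TTTGAA.

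**Figure D1:**
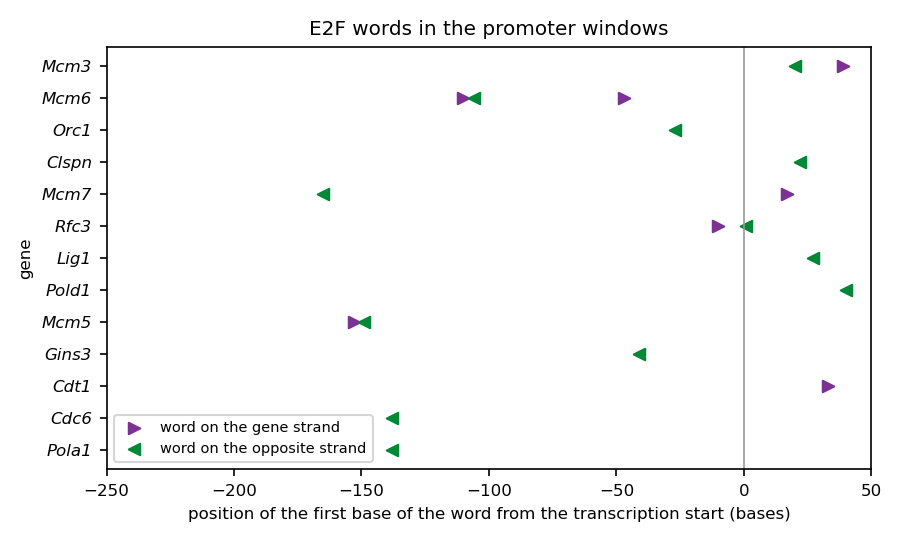
Position of each E2F word (triangle) from the transcription start, in bases, for the 13 genes with a word, which are listed on the vertical axis. Triangles to the right are words on the gene strand and triangles to the left are words on the opposite strand; 12 of 19 words begin within 100 bases before or 50 after the start.

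The libraries held 15576975, 16477997 and 17014022 counts. Levels are given as CPM, the counts of a gene per 1000000 counts of the library after TMM scaling, and a gene counted as tested at 1 CPM or more in at least 1 library, which left 13563 genes. The B cell label was checked on 10 pan B cell markers, which summed to 20492, 19057 and 14081 CPM. Cd74 alone gave 13860, 8314 and 4812 CPM of these sums, and without it the other 9 summed to 6632, 10743 and 9269 CPM, so that tumour 1 was the lowest. Of the 10 markers, 6 were highest in tumour 2, 3 in tumour 3 and Cd74 alone in tumour 1. Markers of other cells were not even across tumours. The 10 T cell markers summed to 129, 288 and 1189 CPM, and 8 of the 10 were highest in tumour 3. Of these sums Cd2 gave 35.3, 213 and 381 CPM, and Cd5 gave 82.05, 33.90 and 16.01 CPM. The sums of tumours 1 and 2 were thus mostly Cd2 and Cd5. Cd5 went the opposite way, highest in tumour 1 and lowest in tumour 3, and Cd4 was highest in tumour 2. Cd3e, a chain of the T cell receptor complex, was at 0 counts in tumour 1 (which allows up to 0.199 CPM), 1.41 CPM in tumour 2 and 57.7 CPM in tumour 3. Macrophage markers summed to 35.9, 406 and 180 CPM, and 9 of 10 were highest in tumour 2. Cd68 alone gave 24.8, 325 and 162 CPM of these sums, so the sum of tumour 3 was mostly Cd68. Neutrophil markers reached 42.9 CPM and erythroid markers 23.2 CPM at most. In bulk RNA, fewer cycling cells and less RNA per cell cannot be told apart.

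All 40 genes were above 1 CPM in every library, and 38 were at 10 CPM or more in every library, as were 56.9% of tested genes. Fen1 and Gins3 were the exceptions. Their median level was 79.9 CPM, against 25.1 CPM for all tested genes, and 34 of 40 lay above that median. Mean levels ran from 4.13 CPM (Fen1) to 309 CPM (Mcm6), with 17 genes at 100 CPM or more and 13 under 50 CPM. The highest were Mcm6, Rpa1, Mcm5, Mcm2, Pold1, Mcm3, Mcm4 and Pcna. Together the genes took 0.480%, 0.353% and 0.458% of all counts in tumours 1, 2 and 3, or 4955, 3563 and 4396 CPM. The sum was thus lowest in tumour 2, in which macrophage markers were highest; the part of other cells in it was not tested.

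**Figure D2:**
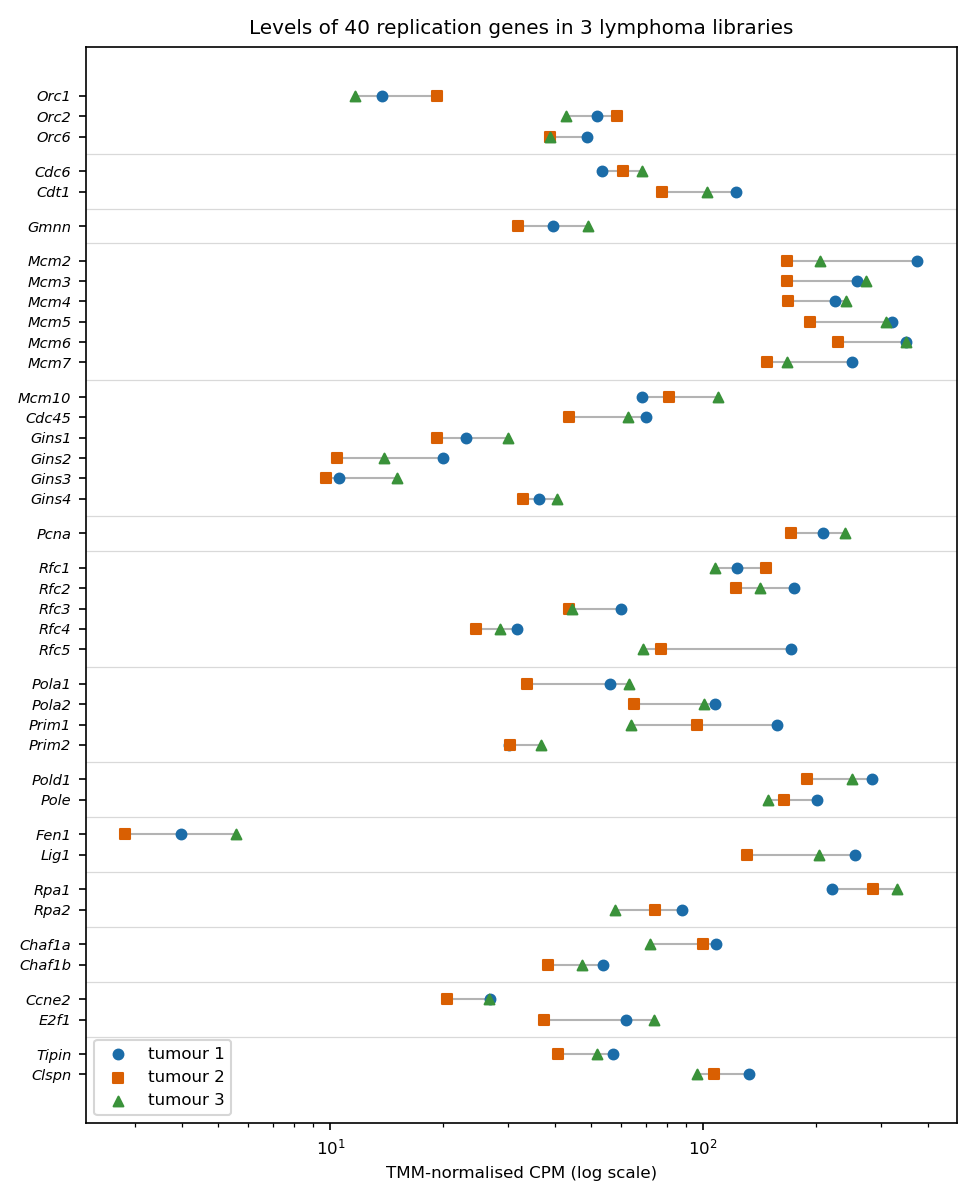
TMM-normalised CPM on a log axis for each of the 40 genes, grouped by role, with 1 point per tumour and a line from the lowest to the highest tumour. The MCM subunits lie between 148 and 375 CPM, and in all 6 the square of tumour 2 is the lowest point.

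Most of these genes were lowest in tumour 2. That held for 27 of 40 (67.5%), whereas 28.3% of tested genes were lowest there. Only 4 of 40 were lowest in tumour 1 (39.3% of tested genes) and 9 in tumour 3 (32.4%). Tumour 1 was highest for 22 of 40 (32.9% of tested genes), tumour 3 for 15 (35.5%) and tumour 2 for 3 (31.6%). The differences were small: the highest tumour exceeded the lowest by 1.22-fold (Prim2) to 2.49-fold (Rfc5), with a median of 1.52-fold. The median SD of log2 CPM was 0.31, against 0.47 for all tested genes and 0.37 for tested genes between 10 CPM and the level of the highest member, and 33 of 40 lay under the median of all tested genes and 28 of 40 under that of the genes of like level.

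At a threshold of 1.5-fold, 14 of 40 genes were higher in tumour 1 than in tumour 2, as were 21.4% of tested genes, and none was higher in tumour 2 than in tumour 1 (27.9%). Tumour 3 exceeded tumour 2 by that much for 11 genes (23.2% of tested genes), and the reverse held for Orc1 and Prim1 (22.8%). Between tumours 3 and 1, Mcm10 alone was 1.5-fold higher in tumour 3 (29.5% of tested genes), and Mcm2, Rfc5, Prim1, Rpa2 and Chaf1a were 1.5-fold higher in tumour 1 (23.8%). Median log2 differences were 0.44 for tumour 1 minus tumour 2, 0.33 for tumour 3 minus tumour 2 and -0.16 for tumour 3 minus tumour 1. Over all tested genes the same medians were -0.06, 0.01 and 0.05.

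Of the 3 origin recognition genes, Orc1 and Orc2 departed from the common low level in tumour 2. Orc6 was lowest there by a margin within counting error. Orc1, the ATPase that begins assembly of the origin recognition complex, was at 13.7, 19.4 and 11.7 CPM in tumours 1, 2 and 3. Orc2, a core subunit, was at 51.9, 58.7 and 42.8 CPM. Both were highest in tumour 2 and lowest in tumour 3, an order that only Rfc1 shared among the 40 genes. For Orc1 the ratio of tumour 3 to tumour 2 was 0.602 (95% interval 0.503 to 0.720, exact and conditional on the sum of both counts, covering counting error only, as do the intervals below). Orc6, the loosely attached sixth subunit, was at 48.8 CPM in tumour 1 and 38.8 CPM in both others. Orc1 carries the E2F word printed above, at -27. Nif3l1, on the opposite strand, overlaps 29.8% of the exon bases of Orc2.

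The helicase loading genes parted from each other. Cdc6, the ATPase that brings the helicase to the origin complex, was at 53.5, 60.8 and 68.6 CPM, lowest in tumour 1. Cdt1, the partner that carries MCM2-7, was at 123, 77.7 and 103 CPM, lowest in tumour 2 and 1.58-fold (1.47 to 1.69) higher in tumour 1 than in tumour 2. Geminin (Gmnn), the inhibitor of Cdt1, was at 39.6, 31.8 and 49.0 CPM and was highest in tumour 3. Per length of all exons, the Cdt1 to Gmnn ratio was 1.45, 1.14 and 0.977 in tumours 1, 2 and 3, and the Cdc6 to Gmnn ratio was 0.379, 0.537 and 0.392. The order of tumours for Cdt1 over its inhibitor therefore differed from that of either gene alone.

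All 6 subunits of the MCM2-7 helicase were lowest in tumour 2. Mcm2 was at 375, 167 and 205 CPM, Mcm3 at 258, 168 and 273, and Mcm4 at 225, 168 and 241. Mcm5 was at 321, 193 and 310 CPM, Mcm6 at 349, 230 and 350, and Mcm7 at 251, 148 and 168. In tumours 1 and 3, Mcm3, Mcm4, Mcm5 and Mcm6 stood close together, whereas Mcm2 and Mcm7 were high in tumour 1 only. The ratio of tumour 1 to tumour 2 was between 1.34 (Mcm4) and 2.24 (Mcm2, 2.14 to 2.35). For Mcm6 tumours 3 and 1 differed by 0.01 on the log2 scale (interval of the ratio 0.968 to 1.04). For Mcm2 the ratio of tumour 3 to tumour 1 was 0.546 (0.524 to 0.570). Mcm7 shares 23.3% of its 50-base words with other annotated genes, foremost the pseudogene Gm5487 (6, 5 and 13 counts), so some of its reads may have been placed there.

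The subunits of MCM2-7 stand in equal numbers in the helicase, and their RNA levels per length were set side by side. As RPKM, the CPM divided by the length of the union of exons in kilobases, the means ran from 35.8 for Mcm2 to 68.7 for Mcm5, a 1.92-fold range. Over the longest transcript the range was 1.38-fold. Within tumours 1, 2 and 3 the range over the union of exons was 1.49-fold, 2.05-fold and 2.63-fold. The means of the RFC subunits spanned less, 1.70-fold over the union of exons. The summed level of the 6 was 397, 247 and 360 RPKM in tumours 1, 2 and 3. Mcm2 held 13.6%, 9.75% and 8.19% of that sum, and Mcm5 held 20.2%, 19.6% and 21.5%. Over the longest transcript the Mcm2 share was 21.3%, 15.8% and 13.5%, with tumour 1 again the highest.

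Genes that activate the helicase were lowest in tumour 2 in 5 of 6 cases. Mcm10, which helps to start unwinding, was the exception at 68.5, 81.1 and 110 CPM. Tumour 3 exceeded tumour 1 by 0.68 on the log2 scale, and the interval of the ratio was 1.49 to 1.73. Cdc45, the helicase cofactor, was at 70.4, 43.8 and 62.7 CPM. The GINS subunits were less abundant: Gins1 was at 23.1, 19.4 and 29.9 CPM, Gins2 at 20.1, 10.4 and 13.9, Gins3 at 10.5, 9.75 and 15.1, and Gins4 at 36.3, 32.9 and 40.6. Gins4 had the smallest SD of log2 CPM of the 40 genes, 0.15. Although the 4 GINS proteins form a complex of 1 copy each, their RPKM differed 7.50-fold over the union of exons. Gins4 held 52.8%, 56.3% and 51.2% of the sum, and Gins2 held 9.63%, 5.88% and 5.78%. The exons of Gins2 overlap Gse1 on the opposite strand over 67.3% of their bases. On the bases free of other genes the mean RPKM of Gins2 was 11.1 in place of 3.61 if reads on shared bases were left uncounted, which the labels do not say.

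Pcna, the clamp that holds polymerases on DNA, was at 210, 172 and 240 CPM. With 86.3 RPKM on average it had the highest level per length of the 40 genes (136 over the longest transcript). Of its 50-base words, 19.1% also occur in other genes, foremost the pseudogene Pcna-ps2 (15, 10 and 15 counts).

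The RFC clamp loader, which opens Pcna and places it on DNA, had subunits with unlike orders. Rfc1, the large subunit, was at 123, 147 and 108 CPM and was highest in tumour 2. Rfc2 was at 175, 123 and 142 CPM, Rfc3 at 60.2, 43.5 and 44.4, and Rfc4 at 31.7, 24.6 and 28.5. These small subunits were highest in tumour 1 and lowest in tumour 2. For Rfc3 the ratio of tumour 3 to tumour 2 was only 1.02 (0.920 to 1.13), so its lowest tumour is not resolved. Rfc5 (chr5:117378103-117389047, minus strand), also a small subunit, was at 172, 77.1 and 68.9 CPM, and tumour 1 exceeded tumour 3 by 2.49-fold (2.33 to 2.67), the widest ratio of the 40 genes. Its share of the summed RFC level per length of exons was 30.1% in tumour 1, 18.6% in tumour 2 and 17.1% in tumour 3. Wsb2 overlaps 10.7% of the exon bases of Rfc5 on the opposite strand and was also highest in tumour 1, at 85.3, 43.3 and 47.3 CPM. The counting strand is not known from the labels, and the part of Wsb2 reads in the Rfc5 counts was not tested.

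Polymerase alpha and primase make the RNA-DNA primers. Pola1, the catalytic subunit, was at 56.3, 33.6 and 63.3 CPM, and Pola2, its partner, at 107, 65.1 and 100 CPM. Both were at least 1.5-fold lower in tumour 2 than in either other tumour. Prim1 (chr10:128015168-128030037, plus strand), the catalytic primase subunit, was at 158, 96.2 and 63.9 CPM, so that tumour 1 exceeded tumour 3 by 2.47-fold (2.30 to 2.65). Prim2, the large primase subunit, was at 30.2, 30.3 and 36.7 CPM and had the narrowest range of the 40 genes. The 2 primase subunits, which work as a pair, thus went opposite ways between tumours 1 and 3. Prim1 made up 62.6%, 59.7% and 39.3% of the summed RPKM of the complex over the union of exons, and 45.6%, 42.7% and 24.9% over the longest transcript.

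**Figure D3:**
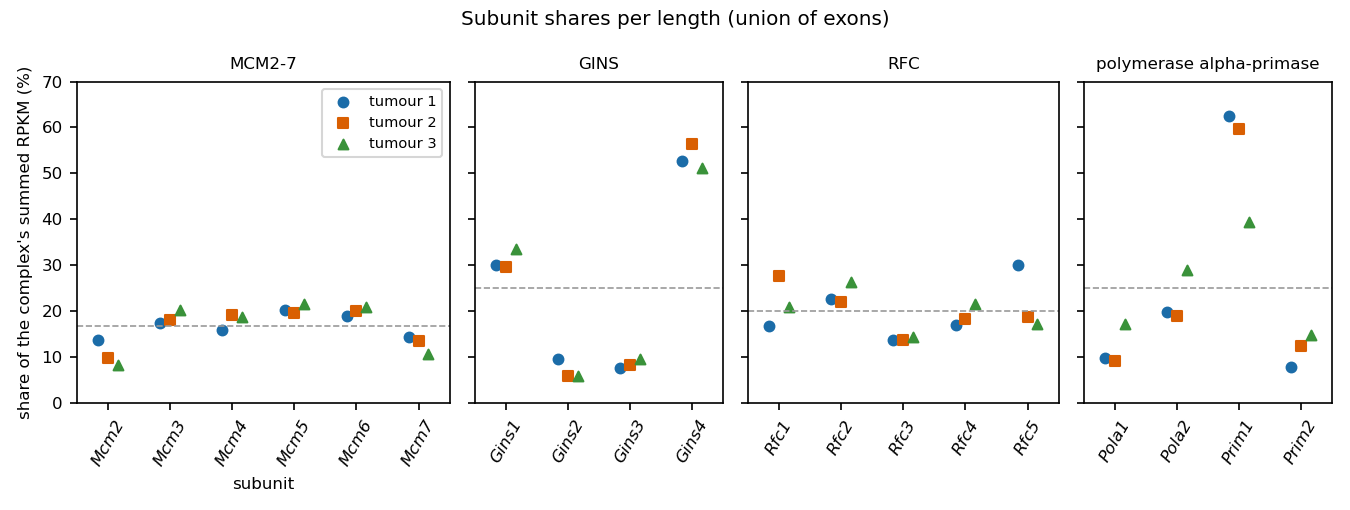
Share of each subunit in the summed RPKM of its complex (percent, union of exons), 1 point per tumour; the dashed line marks equal shares. The 6 MCM subunits lie between 8.19% and 21.5%, while Gins4 lies between 51.2% and 56.3% and Prim1 runs from 39.3% to 62.6%.

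The leading and lagging strand polymerases differed in level. Pold1, the catalytic subunit of polymerase delta, was at 283, 190 and 251 CPM, and Pole, that of polymerase epsilon, at 201, 165 and 149 CPM. Per length of exons, the Pole to Pold1 ratio was 0.310, 0.377 and 0.259 in tumours 1, 2 and 3. Lig1, the ligase that joins Okazaki fragments, was at 256, 131 and 205 CPM, and tumour 1 exceeded tumour 2 by 1.95-fold (1.85 to 2.06). Fen1, the flap endonuclease that trims those fragments, was listed at 60, 46 and 99 counts, or 3.98, 2.82 and 5.58 CPM. It was the least abundant of the 40 genes, with a mean of 4.13 CPM beside 197 CPM for Lig1.

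The exons of Fen1 (chr19:10199132-10204169, minus strand, mm10, GENCODE M21) are largely shared with other genes. Of their bases 84.2% overlap the opposite strand's genes, of which the antisense gene Gm10143 covers 78.8% and Tmem258 covers 5.37%. Gm10143 had 18, 10 and 23 counts, fewer than Fen1 in each tumour. Spread over the 383 exon bases free of other genes, the Fen1 counts gave a mean of 10.8 RPKM in place of 1.70. Chaf1a is overlapped over 52.5% of its exon bases, by Ubxn6. Spread in the same way over its free bases, the Chaf1a counts gave a mean of 22.2 RPKM in place of 10.6. The higher values of Fen1 and Chaf1a hold only if reads on shared bases were left uncounted, which the labels do not say. Levels of Fen1, Gins2 and Chaf1a are therefore uncertain, and 14 of the 40 genes overlap a gene on the opposite strand. Without these 3 genes, 25 members were lowest in tumour 2.

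Replication protein A coats single-stranded DNA, and its subunits did not move together. Rpa1, the large subunit, was at 221, 286 and 331 CPM, and Rpa2 at 87.9, 74.0 and 58.1 CPM. Rpa1 was lowest and Rpa2 highest in tumour 1. The Rpa1 to Rpa2 ratio per length of exons was 1.35, 2.07 and 3.06 in tumours 1, 2 and 3.

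Chromatin assembly factor 1 puts histones on new DNA. Chaf1a was at 108, 100 and 72.0 CPM, lowest in tumour 3, and Chaf1b at 53.8, 38.3 and 47.3 CPM, lowest in tumour 2. Of the S phase entry genes, Ccne2 (cyclin E2) was at 26.8, 20.5 and 26.5 CPM. E2f1, the activator of S phase genes, was at 61.9, 37.4 and 73.9 CPM, and tumour 3 exceeded tumour 2 by 1.98-fold (1.79 to 2.18). The fork protection genes Tipin and Clspn, which hold the fork together and relay stalling to Chek1, were at 57.1, 40.9 and 52.0 CPM and at 133, 107 and 96.2 CPM. Clspn was lowest in tumour 3 and Tipin in tumour 2.

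Other genes of the cell cycle were set beside these from lists. Mitosis genes, most of which act after S phase, were lowest in tumour 2 in 21 of 25 cases, and 18 were highest in tumour 3. Their median log2 difference was 0.69 for tumour 1 minus tumour 2, 0.94 for tumour 3 minus tumour 2 and 0.24 for tumour 3 minus tumour 1, the last of opposite sign to the -0.16 of the replication genes. Kif11, the spindle motor, was at 177, 96.9 and 238 CPM, Ccna2 (cyclin A2) at 175, 69.2 and 198, and Tpx2, a spindle assembly factor, at 95.2, 91.8 and 207. Nusap1 was at 96.0, 53.6 and 164 CPM and Cenpf at 44.7, 18.8 and 80.9. Tumour 2 was the lowest for each of these 5. The difference between the lists was not tested.

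**Figure D4:**
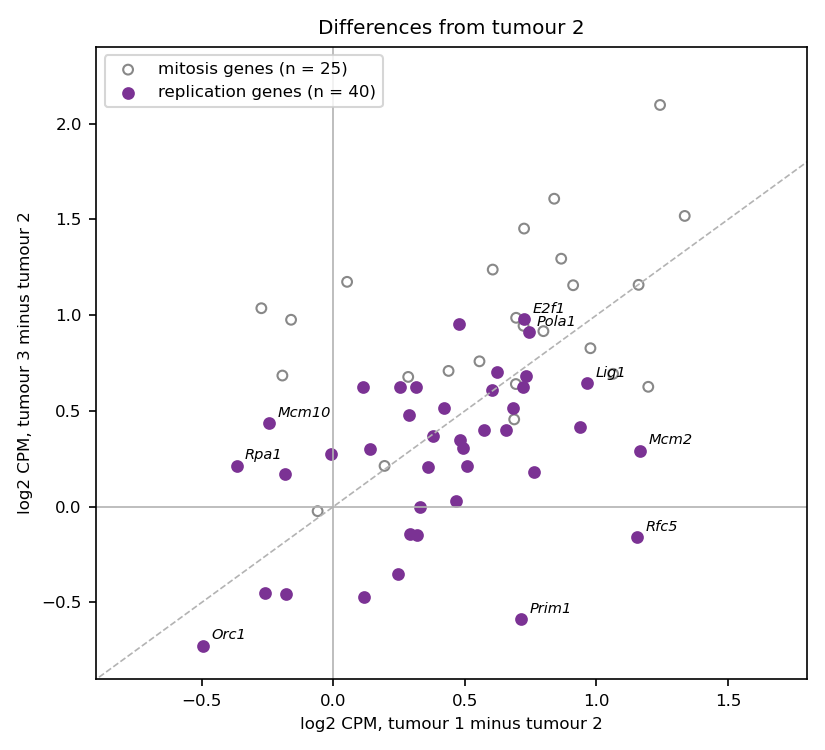
Log2 CPM of tumour 3 minus tumour 2 against tumour 1 minus tumour 2, for the 40 replication genes (filled) and 25 mitosis genes (open); on the dashed line tumours 1 and 3 are equal. Most points of both kinds lie right of and above 0, and the mitosis genes reach further up, with a median of 0.94 against 0.33.

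Nucleotide supply genes were lowest in tumour 2 in 7 of 8 cases. Rrm1, the large subunit of ribonucleotide reductase, was at 361, 234 and 260 CPM, Rrm2, the small one, at 121, 68.1 and 169, and Tk1, thymidine kinase, at 106, 38.7 and 101. Dut, which hydrolyses dUTP, was at 89.3, 72.5 and 109 CPM. The other 30 replication genes were less alike: 12 were lowest in tumour 2, 7 in tumour 1 and 11 in tumour 3. Among them Topbp1, which brings Cdc45 to origins, was at 312, 175 and 265 CPM, Top1 at 192, 246 and 192, and Mcmbp, an MCM binding protein, at 196, 155 and 141. Rpa3 was at 45.7, 30.8 and 18.2 CPM, Recql4 at 49.2, 52.2 and 24.0, and the histone chaperone Asf1b at 53.0, 32.4 and 82.3. Their medians for the same 3 differences were 0.26, 0.02 and -0.22.

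In the E2F, RB and G1/S control list, 11 of 20 genes were lowest in tumour 2. E2f2, an activator, was at 313, 198 and 190 CPM, the repressor E2f4 at 175, 173 and 204, and Cdk2, the kinase partner of cyclin E, at 228, 160 and 99.8. Genes of low level varied most: Cdkn1a, the Cdk inhibitor p21 and a p53 target, was at 1.52, 1.90 and 9.47 CPM, Tfdp2 at 1.13, 2.02 and 7.33, and E2f5 at 1.59, 5.64 and 8.68. All 3 were highest in tumour 3, in which 8 of the 10 T cell markers were highest. The part of T cell RNA in these 3 genes was not tested. Of the 8 checkpoint genes 4 were lowest in tumour 2. Wee1, a Cdk1 inhibitor kinase, was at 167, 84.3 and 71.4 CPM, Atr at 81.9, 48.1 and 68.6, Chek1 at 61.0, 34.0 and 37.0, and Rad1 at 31.7, 51.1 and 27.8.

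Whole chromosomes differed in median level between these tumours, and part of the difference between tumours 1 and 3 ran along them. The shift of a chromosome in a tumour was the median, over its tested genes, of log2 CPM minus the gene's mean. For tumour 3 minus tumour 1 it was 0.69 on chromosome 2, 0.64 on chromosome 11, -0.34 on chromosome 5 and -0.73 on chromosome 10. Across the 40 genes, which lie on 15 chromosomes, Pearson's r between the gene's difference and the shift was 0.783 and Spearman's rho 0.728, as a description over genes that share chromosomes and libraries. Over 13528 tested genes, not matched to the 40 in level, r was 0.207 and rho 0.366. For the other pairs of tumours the values of the 40 genes were lower. For tumour 1 minus tumour 2, r was 0.517 and rho 0.507 (r 0.153 over tested genes). For tumour 3 minus tumour 2, r was 0.656 and rho 0.467 (r 0.185 over tested genes). Mcm10 on chromosome 2 differed by 0.68 where its chromosome shifted by 0.69, and Rpa1 on chromosome 11 by 0.58 where the shift was 0.64. Prim1 on chromosome 10 differed by -1.30 for a shift of -0.73, Rfc5 on chromosome 5 by -1.32 for -0.34, and Mcm2 on chromosome 6 by -0.87 for -0.27, so these 3 lay below their chromosomes. DNA copy number was not measured, and its part was not tested.

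**Figure D5:**
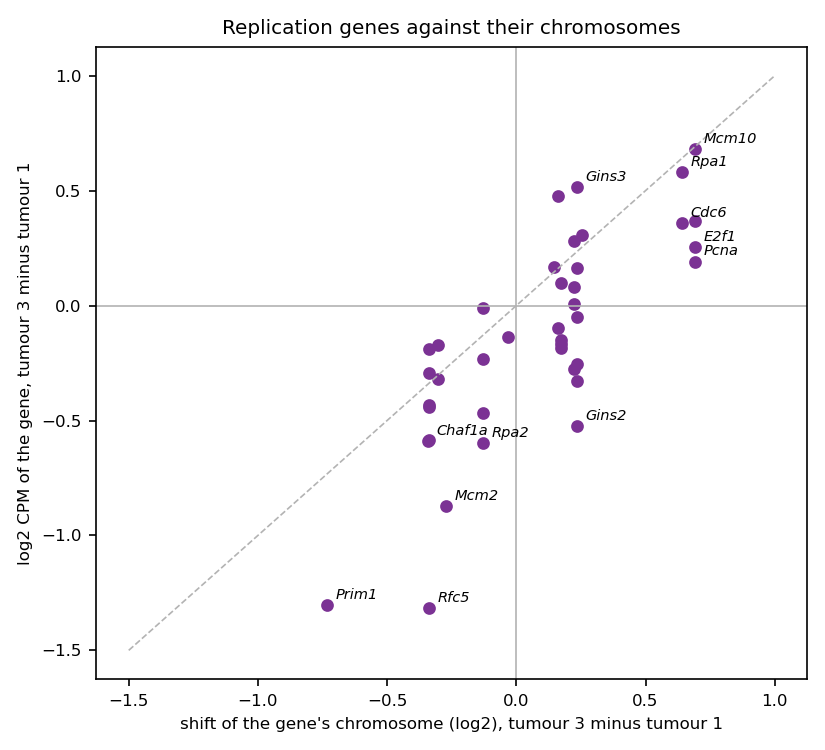
Log2 CPM difference between tumours 3 and 1 for each of the 40 genes (vertical) against the shift of its chromosome (horizontal, log2); the dashed line marks equality. Mcm10 and Rpa1 lie near the line at the upper right, and Prim1, Rfc5 and Mcm2 lie below it.

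Once the chromosome shifts were subtracted, 35 of 40 genes were lowest in tumour 2 (31.8% of tested genes). The exceptions were Orc1, Orc2, Orc6, Rfc1 and Chaf1a. Tumour 1 was then highest for 29 genes (35.5% of tested genes) and tumour 3 for 8 (32.2%), in place of 22 and 15. Median log2 differences became 0.50 for tumour 1 minus tumour 2, 0.27 for tumour 3 minus tumour 2 and -0.23 for tumour 3 minus tumour 1. For mitosis genes they were 0.78, 0.88 and 0.23, with 22 of 25 lowest in tumour 2. Orc1, Orc2 and Rfc1 were highest in tumour 2 both with and without the subtraction.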

How the data were processed

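PolyA RNA of 3 libraries was sequenced in single-end reads on a DNBseq platform, per the labels. The authors deposited raw counts per gene, with STAR 2.5.2b, featureCounts 1.6.0, FastQC and mm10 named in the submitters' processing notes. Neither the annotation used nor whether strand was used in counting is stated in those notes (not given in the sources used here).

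Counts were scaled with edgeR 4.0.16 TMM factors (0.969, 0.990 and 1.04) in R 4.3.3, and log2 CPM used a prior count of 2. Totals ran from 15576975 to 17014022, and the exact 95% Poisson bounds of 100 counts are 81.4 and 122. The common biological coefficient of variation was 0.445. Exon lengths and overlaps came from GENCODE M21 (37536 gene identifiers matched), and promoter windows from RefSeq GRCm38.p6. Python 3.11.15 served for tables (pandas 2.3.3), intervals (SciPy 1.17.1, NumPy 2.4.6) and plots (matplotlib 3.10.9). The TMM scaling was tested on simulated counts with known folds, which varied less between libraries than these data do.

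The labels gave 1 group, and the numbers of the tumours follow accession order and are names only. The members and lists were chosen with earlier results of these data known. All 40 members are named, and of each other list the 3 of highest mean CPM, the 3 of largest SD of log2 CPM at a mean of 1 CPM or more, and members under 1 CPM where 3 or fewer are. Some genes that this rule names are left out of the text. Promoters shown in full are the 4 with the most E2F words, ties going to the higher mean CPM. CCAAT and TTTGAA, the chromosome medians, the set without overlapped genes, the subunit shares other than those of MCM2-7, the ratios of partner genes, the pan B cell sum without Cd74 and the overlapping genes were added after values were seen. Alternatives covered total counts, DESeq2 1.42.0 size factors, a prior count of 0.5, a fold of 2, the longest transcript, a pair of E2F words and leaving out each tumour.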

Additional observations from a re-analysis of the deposited data

How the results depend on the processing

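Of 64 alternative values, 54 stayed within the spread or within 1.5 times the main count. With total counts 27 members and with DESeq2 size factors 28 members were lowest in tumour 2, beside 29.1% of all tested genes under either. With a fold of 2 in place of 1.5, the counts became 2 for tumour 1 over tumour 2, 0 for tumour 3 over tumour 2, 0 for tumour 3 over tumour 1 and 2 for tumour 1 over tumour 3. With total counts in place of TMM, 4 members were at least 1.5-fold higher in tumour 3 than in tumour 1 and 3 the reverse. Shares of all tested genes are not given for these fold counts, so they show only how the member calls moved. After the chromosome median was subtracted, an alternative chosen after seeing the data, 8 members were highest in tumour 3. Leaving out each tumour gave a median level of 69.5 to 81.0 CPM, a median SD of log2 CPM of 0.20 to 0.33, and 15 to 31 members highest in tumour 3, the last with tumour 1 left out, where only 2 tumours are ranked. Those counts of members also have no share of tested genes beside them. The smallest SD came without tumour 2. Median shifts of all genes under other scalings were at most 0.06 (log2). Counting depth limits Fen1 most, with 46 to 99 counts.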

Other observations

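The marker genes beside which these values stand are given here as levels in tumours 1, 2 and 3. Cd74, the invariant chain, was at 13860, 8314 and 4812 CPM, and Ms4a1 (CD20) at 916, 2590 and 2232. Ptprc, which encodes B220, was at 408, 718 and 1346 CPM, and Cd79b, a chain of the B cell receptor, at 519, 1339 and 1521. From the T cell list, Cd2, Cd8a and Thy1 were at 35.3, 213 and 381 CPM, at 0.663, 4.54 and 238 CPM and at 0.862, 3.31 and 189 CPM. Cd68 of macrophages was at 24.8, 325 and 162 CPM, and Lyz2 at 7.95, 32.7 and 9.64. The macrophage receptor gene Csf1r was at 0.994, 15.6 and 2.59 CPM, and C1qa, C1qb and C1qc were under 1 CPM in tumours 1 and 3 and at 8.70, 10.4 and 7.97 CPM in tumour 2. Cd14 and Fcgr1 had a mean under 1 CPM.

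Among granulocyte genes Ngp was at 0, 6.80 and 15.2 CPM, S100a9 at 0.199, 5.70 and 10.7, Ltf at 0, 1.35 and 7.27, and S100a8 at 0, 1.96 and 5.18. Globin genes, whose near-identical copies can share reads, were low: Hbb-bs was at 4.04, 10.3 and 4.73 CPM, Hba-a1 at 1.33, 4.23 and 3.32, Hba-a2 at 1.79, 3.13 and 1.63, and Hbb-bt at 1.06, 2.76 and 0.620. Of the plasma cell genes, Irf4 was at 392, 297 and 233 CPM, Mzb1 at 155, 142 and 44.8, Xbp1 at 90.0, 73.3 and 113, and Jchain at 1.39, 8.09 and 11.8. Sdc1 (CD138) and Tnfrsf17 (BCMA) had a mean under 1 CPM. The plasma cell list summed to 646, 531 and 411 CPM.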
